A study of Mus musculus with 8 samples.

Results

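*Fam150a* and *Fam150b* encode the small secreted ligands of the receptor tyrosine kinases ALK and LTK, and these 4 genes were followed together with *Acp1*, whose transcripts overlap those of *Fam150b*. The 5 genes were taken by name from the 45706 genes in the deposited tables, and 4 of them had enough reads to be tested. The family was selected on the CNO and vehicle levels of *Fam150b*, which had come out higher after CNO in these same samples, so its difference between the groups is given here as a description and no p is read from it.

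All mice were PvalbFlp/+;Neurod6Cre/+ and received an AAV carrying flox-fdio-HA-RPL10a-T2A-myc-hM3Dq in S1 at postnatal day 1, so vehicle-treated mice carried the tagged ribosomal protein and hM3Dq as well. The virus uses a neuronal promoter, needs Flp, which these mice make in *Pvalb*-expressing cells, and is switched off by Cre in pyramidal cells. The receptor hM3Dq raises neuronal activity when CNO is present, and mice had 5 injections of CNO (1 mg/kg) or vehicle over about 48 h at postnatal day 42 to 70 by the labels. Ribosome-associated mRNA was pulled down through the HA tag and sequenced in 4 CNO and 4 vehicle samples, each of them a pool of 4 brains. A difference between groups can therefore reflect transcript amount, ribosome binding or the make-up of the pulled-down cells, and these cannot be told apart.

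ALK and LTK belong to the insulin receptor superfamily. FAM150A and FAM150B, also named ALKAL1 and ALKAL2, bind the extracellular part of the receptors and bring receptors together, after which adaptors such as SHC, FRS2 and IRS1 couple them to the RAS-ERK and PI3K-AKT pathways. ALK is best known from the developing nervous system and from neuroblastoma, where activating mutations occur. *Acp1* encodes a low molecular weight protein tyrosine phosphatase and is followed only because of its position.

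*Fam150b* (ENSMUSG00000054204, *Alkal2* in current annotation) lies on the plus strand of chromosome 12 of GRCm38 from 30884322 to 30893854. It has 1 transcript of 1509 bases in 5 exons in GENCODE M21, which may differ from the iGenomes annotation that the authors quantified on. *Acp1* (ENSMUSG00000044573) lies on the minus strand from 30893326 to 30911589. The genes meet tail to tail, and the exons of both cover 529 bases from 30893326 to 30893854, all in the 3′ untranslated regions and 0 of them coding. These bases are 35.1% of the *Fam150b* transcript, 17.3% of the longest *Acp1* transcript and 7.2% of the other coding *Acp1* transcript. Of the 31-base stretches of *Fam150b*, 33.7% also occur in another gene, and that gene is *Acp1* on the opposite strand. The library kit does not mark strand, so a read that lies wholly in the shared bases does not show which gene it came from.

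**Figure D1:**
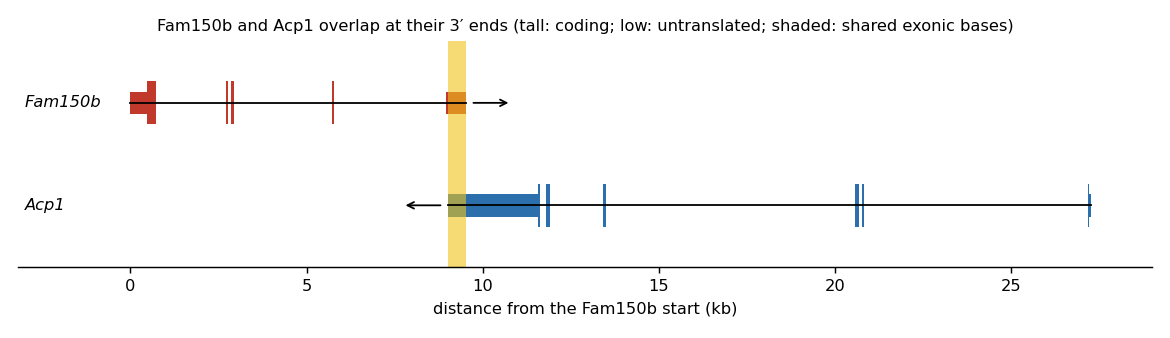
Exons of *Fam150b* (upper line, transcribed to the right) and of the longest *Acp1* transcript (lower line, transcribed to the left) by distance from the *Fam150b* start in kb, with coding exons tall, untranslated exons low and the shared exonic bases shaded. The 529 shared bases are at the 3′ ends of both genes and hold no coding sequence.

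The other ligand gene and both receptor genes share no 31-base stretch with another gene. *Fam150a* (ENSMUSG00000087247, *Alkal1*) lies on chromosome 1 from 6359218 to 6394731, *Alk* (ENSMUSG00000055471) on chromosome 17 from 71868972 to 72604627 and *Ltk* (ENSMUSG00000027297) on chromosome 2 from 119751320 to 119760431. The estimated counts mirror this: those of *Alk* and *Ltk* were within 0.01 of a whole number in all 8 samples, whereas those of *Fam150b* were fractional in 8 and those of *Acp1* in 7 of the 8. *Acp1* shares 28.1% of its stretches with other genes, which include *Fam150b* and the predicted genes *Gm14388*, *Gm1866* and *Gm6197*.

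The 250 bases before the start of *Fam150b* and of *Alk* are shown because both hold a CRE core. This core is the 5 letters TGACG, to which CREB and ATF factors can bind, and capitals mark it. Both stretches come from RefSeq on GRCm38.p6, at chr12:30884074-30884323 on the plus strand for *Fam150b* and chr17:72604308-72604557 on the minus strand for *Alk*.
Fam150b: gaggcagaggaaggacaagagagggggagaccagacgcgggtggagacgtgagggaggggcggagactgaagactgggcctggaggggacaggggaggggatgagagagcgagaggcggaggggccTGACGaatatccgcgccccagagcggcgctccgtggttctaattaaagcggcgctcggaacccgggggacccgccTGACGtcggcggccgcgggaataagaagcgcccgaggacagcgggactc
Alk: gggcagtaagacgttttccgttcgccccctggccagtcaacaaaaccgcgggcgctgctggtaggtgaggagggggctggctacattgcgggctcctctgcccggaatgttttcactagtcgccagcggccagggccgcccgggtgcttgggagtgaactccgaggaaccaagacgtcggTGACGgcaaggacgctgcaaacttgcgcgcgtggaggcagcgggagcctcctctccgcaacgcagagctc

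Windows of 250 bases before to 50 after the RefSeq start were found for 4 of the 5 genes and were searched on both strands. *Fam150b* held 2 CRE cores, 124 and 49 bases before its start, and *Alk* held 1, 70 bases before its start. The windows of *Ltk* and *Acp1* held none. That of *Ltk*, chr2:119758476-119758775, also lies inside the gene span given above, so bases before the GENCODE start of *Alk* or *Ltk* were not searched. A CRE core occurs in 20.81% of all 32851 such windows, and 5.01% hold 2 or more. The full CRE TGACGTCA, which contains the core, was in none of the 4 windows and occurs in 1.79% of all. Nor did the 4 windows hold the AP-1 motif TGANTCA (7.81% of all windows), the EGR motif GCGTGGGCG (0.61%) or a CArG box (1.63%). The *Fam150b* window is 68.3% G and C, that of *Alk* 64.0%, that of *Ltk* 69.3% and that of *Acp1* 67.0%, against a median of 52.7% over all windows. These matches describe the letters in the windows and do not show binding.

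Total counts lay between 44064161 and 49413273 per sample, so 3 counts, the smallest level taken as seen, were 0.0607 to 0.0681 CPM (counts scaled to equal library sizes); this covers counting error only, since PCR copies are not independent molecules. The PV+ interneuron marker *Pvalb* had 300.1 to 1160 TPM (counts per length, scaled alike) and the pyramidal cell marker *Slc17a7* 331 to 547 TPM, so RNA of other cells was present. Of 12 PV+ interneuron markers 12 were higher in the CNO samples, 1 of them at an unadjusted p under 0.05 in edgeR's quasi-likelihood test, and their summed level was 4680 to 7360 TPM with CNO and 2340 to 5750 TPM with vehicle. Of 12 pyramidal cell markers 11 were lower, 1 of them at that threshold (summed level 754 to 1020 TPM with CNO and 957 to 1200 TPM with vehicle). Markers of oligodendrocytes (6 of 6), microglia (6 of 6, 1 at that threshold), astrocytes (5 of 6) and VIP interneurons (3 of 4) were mostly lower as well, those of blood vessels (6 of 6) higher, and those of SST interneurons mixed (3 higher, 2 lower), with summed levels that overlapped between the groups except for VIP interneurons (182 to 210 TPM with CNO and 216 to 260 TPM with vehicle). The mean log2 CPM of the 12 PV+ interneuron markers minus that of the 12 pyramidal cell markers is used below as a marker index. This index was lowest in vehicle replicate 1, at 0.29, and highest in CNO replicate 4, at 2.62. The other 6 samples lay between 1.48 and 2.19.

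*Fam150b* was low in the pulldown from vehicle-treated mice and higher in every CNO sample. Its level was 2.37, 3.58, 3.42 and 3.43 TPM in vehicle replicates 1 to 4. In CNO replicates 1 to 4 it was 7.0, 7.24, 7.03 and 11.4 TPM. The groups did not overlap, and the lowest CNO sample stood 1.96 times above the highest vehicle sample. The estimated counts behind these levels were 59.6 to 103 with vehicle and 201 to 353 with CNO. Vehicle replicate 1 lay below the other vehicle samples and CNO replicate 4 above the other CNO samples, whereas the other 3 samples of each group were nearly level. The 2 samples that stood apart are those with the lowest and the highest marker index.

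The mean of *Fam150b* was 5.14 ± 1.53 CPM (SD, n = 4) with CNO and 1.91 ± 0.386 CPM (SD, n = 4) with vehicle, a log2 change (CNO over vehicle) of 1.42 (standard error 0.23) or 2.68-fold. Once the marker index was a covariate, this was 1.13 (standard error 0.18). Without vehicle replicate 1 and CNO replicate 4, a choice made after seeing the data, it was 1.05 (standard error 0.16). Each estimate over the alternatives was above 1 on the log2 scale, from 1.05 to 1.5. The part of cell make-up in what remains was not tested.

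Over all 17495 genes the quasi-likelihood test called 0 genes, 0% of those tested, with the limits of an adjusted p below 0.05, more than 1.5-fold and a mean over 1 TPM. An unadjusted p under 0.05 was reached by 716 genes, 4.09%, and 252 genes, 1.44%, were higher with CNO at that threshold. The likelihood ratio test with edgeR's robust dispersion called 12 genes, 0.0686%, and the Wald test of DESeq2 called 10. All 4 CNO samples lay above all 4 vehicle samples in 138 genes, 0.789% of those tested. *Fam150b* is among the genes of the last 3 counts, from which nothing is read because this same difference chose the gene. No other of the 5 genes was called by any test run.

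**Figure D2:**
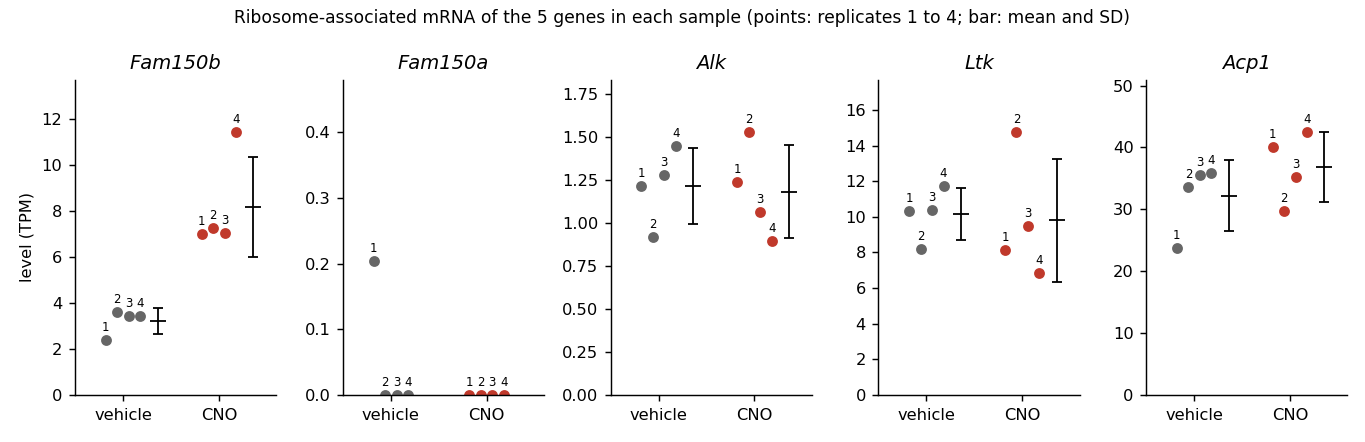
Level of each of the 5 genes in TPM on linear axes that start at 0, by group, with a numbered point for each replicate and, except for *Fam150a*, a bar for the mean and SD of 4 samples. The 4 CNO samples of *Fam150b* sit between 7.0 and 11.4 TPM, above the vehicle samples, while the groups overlap in *Alk*, *Ltk* and *Acp1*.

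*Fam150a*, the other ligand gene, was not detectable above the floor. It had 0 counts in all 4 CNO samples and in vehicle replicates 2 to 4, and 3 counts (0.203 TPM) in vehicle replicate 1. A count of 0 allows up to 3 counts, so in samples with 0 counts a level below 0.0607 to 0.0681 CPM could have been missed. Vehicle replicate 1 was at this floor and not above it. No fold change is given, because neither group exceeded this floor.

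*Alk*, which encodes a receptor that FAM150B activates, was expressed at a low level and did not differ between the groups beyond the spread of the samples. With vehicle its level was 1.22, 0.917, 1.28 and 1.44 TPM in replicates 1 to 4. With CNO it was 1.24, 1.53, 1.06 and 0.897 TPM. The groups overlapped over nearly their whole range. In TPM the highest and the lowest sample were both CNO samples, whereas in CPM vehicle replicate 2 was the lowest, at 1.94. The means were 2.6 ± 0.465 CPM (SD, n = 4) with CNO and 2.56 ± 0.484 CPM (SD, n = 4) with vehicle, a log2 change of 0.02 (standard error 0.20, 95% interval -0.43 to 0.46). Its adjusted p (quasi-likelihood test, Benjamini-Hochberg over all genes) was 0.985, and the two-sided exact permutation test of 4 samples against 4 gave p = 0.914. The interval holds neither the log2 change of *Fam150b* nor a change of 1.5-fold in either direction.

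*Ltk*, which encodes the second receptor of these ligands, was higher than *Alk* in every sample. Its level was 10.3, 8.17, 10.4 and 11.7 TPM in vehicle replicates 1 to 4. In CNO replicates 1 to 4 it was 8.13, 14.7, 9.5 and 6.82 TPM, a wider range that enclosed the vehicle samples. In TPM, CNO replicate 2 was the highest for both receptor genes and CNO replicate 4 the lowest for both, the reverse of *Fam150b* in CNO replicate 4. The means of *Ltk* were 10.1 ± 3.10 CPM (SD, n = 4) with CNO and 10.1 ± 1.24 CPM (SD, n = 4) with vehicle, a log2 change of -0.00 (standard error 0.20, 95% interval -0.44 to 0.43). Its adjusted p was 0.998 in the quasi-likelihood test, and the exact permutation test gave p = 0.914. The sign of these near-zero changes of *Alk* and *Ltk* turned under several alternatives, from -0.10 to 0.11 and from -0.23 to 0.12 on the log2 scale.

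*Acp1*, the overlapping gene, was several times more abundant than *Fam150b* and was not called. Its estimated counts were 1325, 2087, 2356 and 2339 in vehicle replicates 1 to 4. In CNO replicates 1 to 4 they were 2646, 1812, 2301 and 2917. The groups overlapped, with vehicle replicate 1 lowest and CNO replicate 4 highest, the same samples that stood apart in *Fam150b*. Its mean was 51.3 ± 9.96 CPM (SD, n = 4) with CNO and 42.6 ± 8.82 CPM (SD, n = 4) with vehicle, a log2 change of 0.27 (standard error 0.18, 95% interval -0.12 to 0.66). The quasi-likelihood test gave an adjusted p of 0.817, and the two-sided exact permutation test of 4 against 4 gave p = 0.257. Once the marker index was a covariate, the change of *Acp1* was -0.01 (standard error 0.07), and without vehicle replicate 1 and CNO replicate 4 it was 0.02 (standard error 0.12).

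Because reads of the shared bases can be counted for either gene, both were set side by side in each sample. *Fam150b* had 4.49%, 4.85%, 4.35% and 4.29% as many counts as *Acp1* in vehicle replicates 1 to 4. In CNO replicates 1 to 4 it had 7.88%, 11.1%, 9.04% and 12.1% as many. The groups did not overlap in this ratio. Within the vehicle samples it was nearly constant, its highest value 1.13 times its lowest, although both genes ranged more widely, *Acp1* by 1.78 times and *Fam150b* by 1.72 times. With CNO the ratio itself ranged by 1.53 times.

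As a share of the counts of both genes together, *Fam150b* took 9.09% ± 1.58 (SD, n = 4) with CNO, against 4.30% ± 0.231 (SD, n = 4) with vehicle. The sum of both genes, which a shift of reads between them would not change, was 56.4 ± 11.1 CPM (SD, n = 4) with CNO, against 44.5 ± 9.19 CPM (SD, n = 4) with vehicle. In mean CPM, *Fam150b* was higher by 3.23 and *Acp1* by 8.67 with CNO. The difference of *Fam150b* is smaller than the SD of *Acp1* within either group, so a shift of that size would not be visible in *Acp1*. If reads fell evenly along the longest *Acp1* transcript, 229 to 408 of its reads would lie in the shared bases in a vehicle sample and 313 to 505 in a CNO sample, which is more than the whole *Fam150b* estimate of the same sample. How many reads of the shared bases were assigned to each gene is not given by the deposited values, and their part in the difference of *Fam150b* was not tested.

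**Figure D3:**
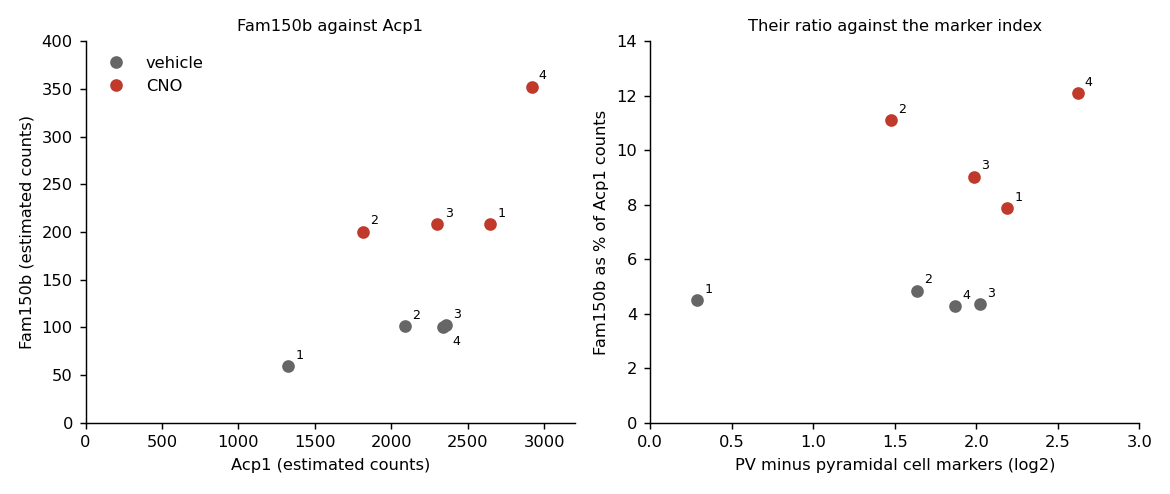
Left, estimated counts of *Fam150b* against those of *Acp1* in each sample; right, *Fam150b* as a percent of *Acp1* counts against the marker index (log2), with numbered replicates of vehicle in grey and CNO in red. The vehicle samples have ratios of 4.29% to 4.85% at indices of 0.29 to 2.02, and the CNO samples lie between 7.88% and 12.1%.

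The marker index was 2.19, 1.48, 1.98 and 2.62 in CNO replicates 1 to 4 and 0.29, 1.64, 2.02 and 1.87 in vehicle replicates 1 to 4. CNO replicates 1 and 4 lay above every vehicle sample, and vehicle replicate 1 below every other sample. The part of cell make-up in the ratio was not tested.

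The length that the authors' quantification used for a gene can be read from counts divided by TPM, given here relative to the median gene of the same sample. For *Fam150b* it was 0.590 ± 0.00565 (SD, n = 4) with CNO, against 0.591 ± 0.00744 (SD, n = 4) with vehicle, lower by 0.319% of the vehicle mean. For *Acp1*, which has transcripts of several lengths, it was 1.303 ± 0.00669 (SD, n = 4) with CNO, against 1.31 ± 0.0107 (SD, n = 4) with vehicle (two-sided exact permutation test, p = 0.40). The value of *Alk* spread by 1.7% over the 8 samples and that of *Ltk* by 8.78%, with exact permutation p = 0.314 and 0.629. *Fam150b* has 1 transcript in GENCODE M21. If the annotation used by the authors holds the same one, its value has little room to differ between samples.

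Per length, the order of the levels was *Acp1*, *Ltk*, *Fam150b*, *Alk* and *Fam150a*, with means over the 8 samples of 34.5, 9.98, 5.69, 1.198 and 0.0254 TPM. *Acp1* exceeded *Ltk* in 8 of 8 samples, by 1.80 ± 0.54 (SD, n = 8) in log2(TPM + 0.1). *Ltk* exceeded *Fam150b* in 7 of 8 samples, by 1.64 on this scale in the vehicle samples and by 0.23 in the CNO samples. *Fam150b* exceeded *Alk* in 8 of 8 samples, by 1.33 with vehicle and 2.68 with CNO. *Alk* exceeded *Fam150a* in 8 of 8 samples, by a size that the added 0.1 TPM sets. For *Acp1* against *Ltk* the two-sided exact sign-flip permutation test gave an adjusted p of 0.0104 over the 4 neighbouring pairs. The order of the means in these same samples chose the pairs, so this p is not an independent test of that order. The adjustment also counts the pairs that are only a description. The pairs with *Fam150b* are a description, since its CNO values chose the gene, and so is that with *Fam150a*, which was at 0 in 7 of the 8 samples. In CNO replicate 4 *Fam150b* was above *Ltk*, at 11.4 against 6.82 TPM.

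**Figure D4:**
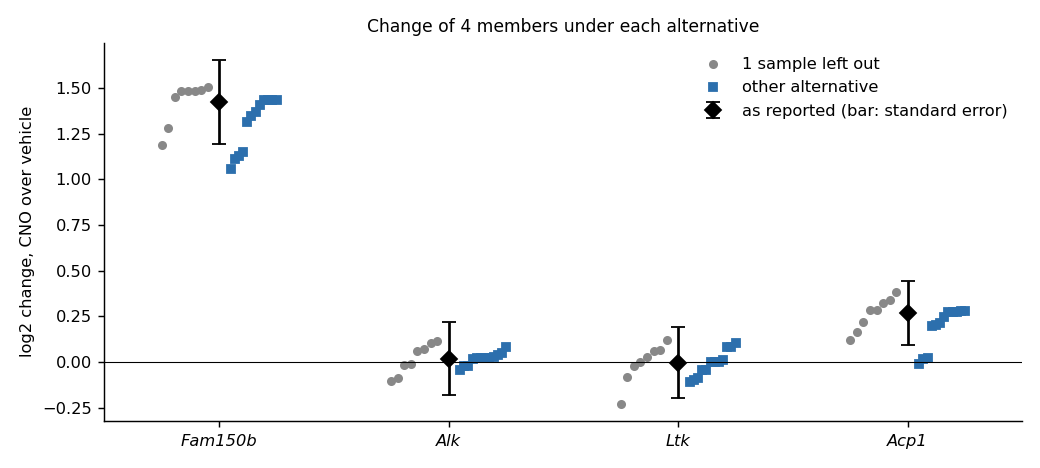
Log2 fold change, CNO over vehicle, of the 4 tested genes in the quasi-likelihood fit (black, with the standard error), with each sample left out (grey) and under the other alternatives (blue). *Fam150b* stays between 1.05 and 1.5, *Alk* and *Ltk* lie on both sides of 0, and *Acp1* lies between -0.01 and 0.38.

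Of 24 genes annotated within 500 kb of *Fam150b*, 6 were tested and 0 reached an unadjusted p under 0.05 in the quasi-likelihood test. *Sh3yl1*, which starts 78 bases from *Acp1*, had 18.4 ± 1.61 CPM (SD, n = 4) with CNO and 17.05 ± 1.18 CPM (SD, n = 4) with vehicle, a log2 change of 0.11 (standard error 0.10). *Dld*, which encodes a mitochondrial dehydrogenase, had a log2 change of 0.17 (standard error 0.12). *Tmem18* had -0.06, *Lamb1*, which encodes a laminin chain, 0.05, and *Fam110c* 0.09 on the log2 scale, the last at only 0.30 CPM with vehicle. Their adjusted p lay between 0.817 and 0.967, *Acp1* included. The groups overlapped in all 6.

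The samples in which *Fam150b* was high or low can be set against other genes, as a description over the 8 samples. After the mean of each group was subtracted, the genes with the most similar log2 CPM among 15169 were *Mesdc1* (Pearson r = 0.997), *Zfand2a* (0.991), *Sh2b2* (0.989), *Ggt7* (0.983) and *Tnni3* (0.982). *Acp1* had an r of 0.818 on the same measure. After this step *Fam150b* deviated most in vehicle replicate 1 and CNO replicate 4, which weigh most in these values. Without the subtraction the genes were *Dusp1* (0.991), *Th* (0.980), *Gm7008* (0.972), *Cited2* (0.968) and *Fosb* (0.955), whose log2 changes with CNO were 1.17, 1.72, 0.53, 0.46 and 1.88. Since *Fam150b* was chosen for its difference between the groups, this measure picks out other genes with such a difference. *Dusp1* encodes a phosphatase of MAP kinases, *Th* tyrosine hydroxylase and *Fosb* an activity-induced transcription factor. For *Alk*, after subtraction, they were *Sept10* (0.982), *Mr1* (0.956), *Dock6* (0.952), *Atxn1l* (0.948) and *Cpsf1* (0.943).

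Around the ligands and receptors, 61 further genes of the pathway were listed and 59 were tested. With CNO 34 were higher and 25 lower, and their median log2 change was 0.04, against 0.00 over all genes tested. In the quasi-likelihood test 3 had an unadjusted p under 0.05, or 5.08% of the 59, close to the 4.09% over all genes, and 0 passed after adjustment over all genes. The likelihood ratio test with robust dispersion also gave 0 after adjustment, and 5 at an unadjusted p under 0.05.

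Both other secreted factors with a debated link to ALK were lower with CNO and did not pass the test. *Ptn*, pleiotrophin, had 86.7 CPM with CNO and 99.3 with vehicle, a log2 change of -0.20 (standard error 0.10), and *Mdk*, midkine, was under 1 CPM in both groups, with -0.29 (standard error 0.28). Of the insulin receptor superfamily and its ligands, 4 of 6 were tested, with 1 higher and 3 lower. *Igf1*, insulin-like growth factor 1, had 5.96, 6.91, 5.61 and 5.87 CPM in CNO replicates 1 to 4 and 10.7, 8.33, 5.79 and 7.63 CPM in vehicle replicates 1 to 4. The groups overlapped, and vehicle replicate 1 was the highest sample. Its log2 change was -0.42 (standard error 0.18, unadjusted p = 0.0399 and adjusted p = 0.817 in the quasi-likelihood test), and with the marker index in the model it was -0.18 (standard error 0.14). *Ros1*, which encodes a relative of ALK, had 0 counts in every sample, and *Insrr* had 2 to 17 counts.

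None of the 16 adaptors reached an unadjusted p under 0.05. Their log2 changes ran from -0.28 (*Gab1*) to 0.26 (*Irs1*), with 10 higher and 6 lower and a median of 0.07. Of the 10 genes of the RAS-ERK kinases, 6 were higher and 4 lower, the lowest at -0.13 (*Nras*), with 0 at that threshold. The 11 genes of the PI3K-AKT-mTOR, PLC and STAT branches lay between -0.18 (*Akt2*) and 0.23 (*Akt1*), with 6 higher, 5 lower and 0 at the threshold. Of the 4 phosphatases that act on ALK or its adaptors, 2 were higher and 2 lower, from -0.47 (*Ptpn6*) to 0.10 (*Ptpn11*), and again 0 reached it. *Irs1* and *Akt1* thus had positive log2 changes that did not exceed the spread between replicates.

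Of 12 transcripts that respond to ERK signalling, CNO samples were higher in 9 and lower in 3 (median log2 change 0.07). In the quasi-likelihood test 2 of them, or 16.7%, reached an unadjusted p under 0.05, both higher with CNO. Over all genes tested 4.09% reached it, and 1.44% did so with a higher level in CNO. The difference between these shares was not tested. *Spry4*, which encodes a feedback inhibitor of receptor tyrosine kinase signalling, had 26.4, 18.9, 24.5 and 30.2 CPM in CNO replicates 1 to 4. In vehicle replicates 1 to 4 it had 7.58, 17.3, 20.5 and 15.5 CPM, so the groups overlapped and vehicle replicate 1 was far the lowest. Its log2 change was 0.71 (standard error 0.25, adjusted p = 0.817 in the quasi-likelihood test). It was 0.49 without vehicle replicate 1 and 0.34 (standard error 0.10) with the marker index in the model.

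*Mycn*, which encodes a MYC family transcription factor known as a target of ALK signalling in neuroblastoma, had 18.3, 16.8, 16.9 and 14.7 CPM in CNO replicates 1 to 4. In vehicle replicates 1 to 4 it had 14.5, 14.7, 13.9 and 12.7 CPM, and the groups overlapped in that CNO replicate 4 was just below vehicle replicate 2. In TPM, CNO replicate 4 (12.5) was below 3 of the 4 vehicle samples. Its log2 change was 0.26 (standard error 0.10, adjusted p = 0.817 in the quasi-likelihood test), and it ran from 0.14 to 0.33 over the alternatives. Two-sided exact permutation tests of 4 samples against 4 gave p = 0.0571 for both *Spry4* and *Mycn* and p = 0.114 for *Igf1*. The other ERK-responsive genes had log2 changes from -0.15 (*Etv1*) to 0.30 (*Dusp4*). *Etv1*, which encodes an ETS transcription factor, had 30.4 ± 0.896 CPM (SD, n = 4) with CNO and 33.8 ± 0.968 CPM (SD, n = 4) with vehicle. It was the 1 gene of the 59 whose groups did not overlap, with all CNO samples lower, as in 1.63% of all genes tested, and its adjusted p was 0.817 in the quasi-likelihood test.

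**Figure D5:**
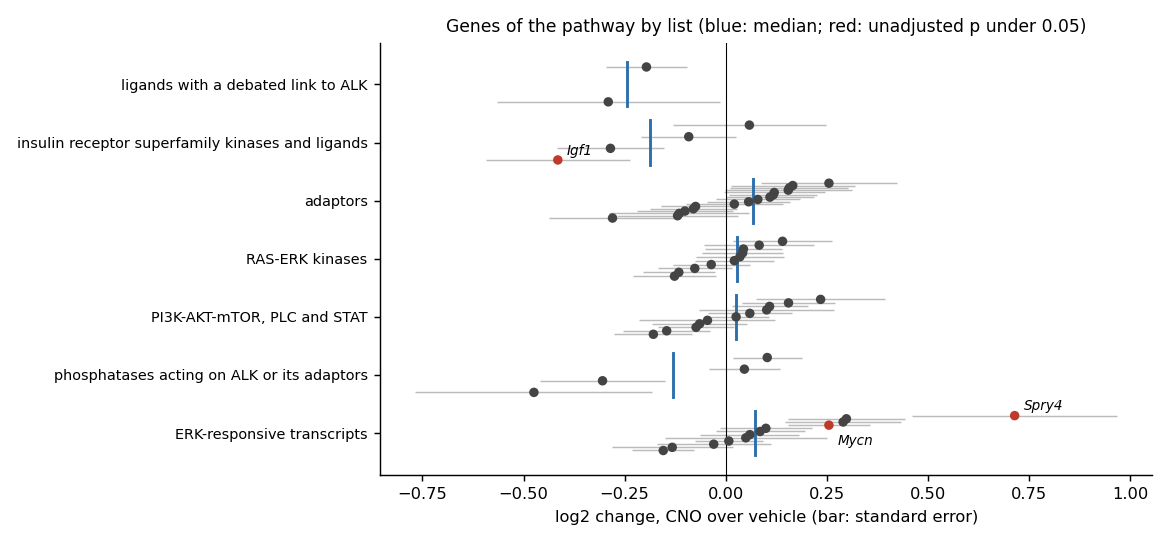
Log2 fold change, CNO over vehicle, with its standard error for the 59 tested genes of the pathway lists, one point per gene, with blue lines at the list medians and red for an unadjusted p under 0.05. The 3 red points are *Igf1* at -0.42, *Mycn* at 0.26 and *Spry4* at 0.71, and the medians lie between -0.24 and 0.07.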

How the data were processed

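Ribosome-associated mRNA was measured by RNA-seq in 4 CNO and 4 vehicle samples. The authors' processing used Trim Galore, STAR and Salmon with GRCm38, with versions not given in the sources used here. The authors deposited estimated counts per gene without normalization, and TPM, which is per length and keeps no depth. Total counts and the floor of 3 counts are given with the results. The members and gene lists were chosen with earlier results of these data known, and no p of *Fam150b* between groups is given or read, because its difference chose the family.

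Estimated counts were rounded. A gene was left out if 4 or more samples had under 10 counts, which kept 17495. Counts were normalized by TMM and compared by the quasi-likelihood test of edgeR 4.0.16 in R 4.3.3 with Benjamini-Hochberg adjustment. Standard errors and 95% intervals came from the fitted coefficients. Single genes were also compared by exact permutation of log2 CPM (prior count 2) over 70 assignments, where p cannot go below 0.0286, and levels of different genes by exact sign flips within samples. Nothing in the sources says that replicate numbers pair the groups, and samples of one number did not deviate together. P-values measure the spread between these pooled samples.

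From each pathway list the genes at an unadjusted p under 0.05 were named, otherwise the highest and the lowest, 1 of which is not reported here. Tested genes within 500 kb of *Fam150b* and the 5 genes most similar to *Fam150b* or *Alk* were named as well, and *Dusp4* and *Etv1* after their values were seen. Positions and 31-base stretches came from GENCODE M21 on GRCm38, promoter windows from RefSeq. The authors quantified on an iGenomes annotation of GRCm38, whose transcripts were not compared with those of GENCODE M21. Alternatives used the robust dispersion of edgeR with a likelihood ratio test, DESeq2 1.42.0, limma 3.58.1 on log2 TPM with 1 or 0.1 added, other normalizations and filters, the marker index, 1 surrogate variable (sva 3.50.0), a replicate block, and each sample left out. Scripts were tested on simulated data. Plots were drawn with matplotlib 3.10.9. No protein sequences were used here.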

Additional observations from a re-analysis of the deposited data

Results flagged for a closer look

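The distance of an extreme sample from the next one, as a ratio to the spread from lowest to highest in its group of 4, was compared with Dixon's 95% critical value. For 4 genes, the share of *Fam150b* and the marker index, 12 groups were examined and 2 held a sample beyond it. Both were in *Fam150b*, whose values in these samples chose the family, and the 12 groups reuse the same samples. No chance rate is therefore set against this count, which is a description. CNO replicate 4 stood above the rest of its group, at a log2 CPM of 2.90 against 2.10 to 2.17 (ratio 0.915). Vehicle replicate 1 stood below the rest of its group, at 0.47 against 1.04 to 1.14 (ratio 0.859). For *Acp1*, vehicle replicate 1 had a log2 CPM of 4.89 against 5.48 to 5.61, a ratio of 0.813. The marker index of these samples was the highest (2.62) and the lowest (0.29) of the 8, and its part in the *Fam150b* values was not tested beyond the fit with the index, where the log2 change was 1.13. No sample was beyond that value in the share of *Fam150b* in the counts of *Fam150b* and *Acp1*.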

How the results depend on the processing

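The log2 change of *Fam150b* was above 0 in every alternative, at 1.19 to 1.5 with 1 sample left out. It moved by more than the spread within groups (0.35) only without vehicle replicate 1 and CNO replicate 4, to 1.05. The change of *Alk* turned to -0.025 with library size only and to -0.024 and -0.044 in limma on log2 TPM with 1 and 0.1 added, and ran from -0.10 to 0.11 with 1 sample left out. That of *Ltk* turned to 0.002 in DESeq2, 0.001 with RLE size factors, 0.01 with a length offset, 0.083 with the marker index, 0.079 with the surrogate variable and 0.11 without both samples, and ran from -0.23 to 0.12 with 1 sample left out. That of *Acp1* turned to -0.014 with the marker index and ran from 0.12 to 0.38 with 1 sample left out. No adjusted p of *Alk*, *Ltk* or *Acp1* was under 0.472. The excess of the *Fam150b* share with CNO was 4.22 to 5.38 percentage points with 1 sample left out, and 9.02 from TPM in place of counts, which weigh the shorter gene more. *Ltk* exceeded *Fam150b* by 0.77 to 1.18 (log2) with 1 sample left out. *Fam150b* exceeded *Alk* by 0.26 in CPM, which is not per length.

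Against 0 genes called in all, there were 12 by the likelihood ratio test with robust dispersion, 10 by DESeq2, 4 without the filter on low counts, 3 with the surrogate variable, and 0 to 2 with 1 sample left out, the 2 without CNO replicate 1. The pathway genes at an unadjusted p under 0.05 numbered 5 in place of 3 with the robust dispersion, and 3 without vehicle replicate 1. Samples of the same number had deviations correlated at -0.03 to 0.24, so the numbers were not taken as pairs. With a replicate block the log2 change of *Fam150b* was 1.41 and 0 genes were called, and with it 0 other calls changed. *Fam150a* entered only the fit without the filter, in which it was not called. At 91 to 151 counts, as for *Alk*, and 59.6 to 103, as for *Fam150b* with vehicle, counting error adds to the spread, and with 4 samples a group a change of *Alk* or *Ltk* within their intervals was not detectable.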
